A study of Rattus norvegicus with 129 samples.

Results

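The 9 genes Apoa1, Apoa2, Apoa4, Apoa5, Apob, Apoc1, Apoc2, Apoc3 and Apoe, which encode the main protein components of plasma lipoproteins, were followed in rat liver across 5 exposure studies. Every probe set (a group of short probes for 1 transcript) whose platform annotation names 1 of these genes and no other was read, which gave 15 of 8740 tested probe sets for 7 genes on the oldest of 3 Affymetrix rat arrays, 10 of 15866 for 8 genes on the second and 11 of 31042 for 9 genes on the third. Apoa5 and Apoc2 are named by no probe set of the oldest array, and Apoc2 by none of the second. Of 129 arrays 128 were used, each of total RNA from 1 rat's whole liver.

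The series asks whether genes regulated by the nuclear receptors CAR and PXR are switched on in rat liver by perfluoroalkyl acids. In the first study, male and female Sprague-Dawley rats, ages not given, received by gavage 100 mg/kg of phenobarbital (an activator of CAR), 100 mg/kg of PCN (a steroidal activator of rodent PXR) or the vehicle, 0.5% methylcellulose containing 1% Tween 80. Livers came from rats killed 6 or 24 h after a single dose or on the day following 5 daily doses, with 5 rats a group, and 4 in the vehicle males at 6 h. In the second, 4 female Sprague Dawley rats aged 4 weeks ate a diet with 600 mg/kg of D3T, a dithiolethione that activates the stress factor Nrf2, against 4 on the plain diet, for a time the labels do not give. In the third, 2 female Sprague-Dawley rats aged 60 days received 5 mg/kg of PFOS (perfluorooctane sulfonate) daily for 3 weeks, against 2 given 0.5% Tween-20. In the fourth, male Sprague-Dawley rats aged 10 weeks received by gavage 20 mg/kg a day of PFOA (perfluorooctanoic acid, as its ammonium salt), 10 mg/kg a day of PFOS (as its potassium salt) or the vehicle, 15% Alkamuls EL-620, with 3 rats a group and no stated duration. In the fifth, male Wistar Hanover rats received 60 mg/kg a day of Wy-14643, an activator of the fatty acid receptor PPARα, or carboxymethyl cellulose, for 1, 3 or 7 days, with 3 rats a group. The label of Wy-14643 rat 06, killed at 3 days, states no dose.

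Apolipoproteins are secreted by the liver, and some also by the intestine, to build, stabilise and steer lipoprotein particles. Apob, made as 1 molecule per particle, is the backbone of very low density lipoprotein, and Apoe is a ligand by which hepatocytes take up remnant particles. Apoa1 and Apoa2 form the core of high density lipoprotein, and Apoa1 activates Lcat, the enzyme that esterifies cholesterol. Apoc2 activates and Apoc3 restrains lipoprotein lipase, which removes triglyceride from particles. Apoa5 favours that removal, Apoa4 accompanies triglyceride-rich particles, and Apoc1 hinders particle uptake and inhibits plasma transfer proteins. Activation of PPARα by fibrate drugs is known to lower several of these transcripts in rodent liver.

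In the RefSeq annotation of build GRCr8, Apoa1, Apoc3, Apoa4 and Apoa5 lie side by side on chromosome 8 with 0 protein-coding genes between neighbours. Apoe and Apoc1 are likewise adjacent on chromosome 1, where Apoc4 is the 1 gene between Apoc1 and Apoc2. RefSeq promoter windows of 300 bases, which end shortly after the start site, were at hand for 5 of the 9 genes, and 4 are printed here. They are those of the neighbours Apoa4 and Apoa5, whose signals were lowered most by 7 days of Wy-14643, and those of Apoc2 and Apoe from the other cluster, the first lowered by PFOA and the second not called after either compound. Capitals mark 3 motifs searched on both strands, the nuclear receptor half-sites AGGTCA and GGGTCA and the TATA box TATAAA.
Apoa4 (chr8:55435529-55435828, plus strand): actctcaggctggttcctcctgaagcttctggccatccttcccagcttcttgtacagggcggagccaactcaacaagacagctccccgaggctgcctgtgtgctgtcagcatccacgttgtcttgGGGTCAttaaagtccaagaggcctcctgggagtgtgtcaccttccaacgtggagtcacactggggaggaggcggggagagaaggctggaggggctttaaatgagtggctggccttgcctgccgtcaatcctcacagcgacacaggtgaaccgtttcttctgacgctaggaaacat
Apoa5 (chr8:55457621-55457920, plus strand): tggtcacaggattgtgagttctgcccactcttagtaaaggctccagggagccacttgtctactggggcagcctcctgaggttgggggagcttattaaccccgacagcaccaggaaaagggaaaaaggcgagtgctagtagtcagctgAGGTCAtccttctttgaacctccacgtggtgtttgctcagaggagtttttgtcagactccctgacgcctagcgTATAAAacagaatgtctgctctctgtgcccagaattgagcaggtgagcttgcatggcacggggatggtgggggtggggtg
Apoc2 (chr1:88462316-88462615, minus strand): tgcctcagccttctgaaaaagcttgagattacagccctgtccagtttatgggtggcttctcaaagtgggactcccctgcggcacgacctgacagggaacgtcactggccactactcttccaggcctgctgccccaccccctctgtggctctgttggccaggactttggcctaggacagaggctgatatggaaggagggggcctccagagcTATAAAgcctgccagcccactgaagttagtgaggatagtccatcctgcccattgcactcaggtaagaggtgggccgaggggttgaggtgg
Apoe (chr1:88485767-88486066, minus strand): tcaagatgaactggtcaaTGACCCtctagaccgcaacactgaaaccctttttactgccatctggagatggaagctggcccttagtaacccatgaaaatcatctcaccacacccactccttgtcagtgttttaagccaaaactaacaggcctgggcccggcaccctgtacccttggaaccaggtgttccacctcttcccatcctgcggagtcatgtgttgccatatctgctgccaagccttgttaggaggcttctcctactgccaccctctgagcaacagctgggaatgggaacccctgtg

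The Apoa4 and Apoe windows each hold 1 GGGTCA, that of Apoe on the reverse strand, the Apoa5 window holds AGGTCA and TATAAA, and the Apoc2 window holds TATAAA. The fifth window, of Apoc1, holds none of the 3 and is not printed. Of 33469 promoter windows of 300 bases, 16.2% hold AGGTCA, 13.8% GGGTCA and 14.2% TATAAA on either strand. A match describes the letters of the window, and no binding was measured.

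Values are log2(intensity + 16), so that 4.00 is the floor, and levels are compared only within a probe set and a study. Where several probe sets name a gene, the one with the highest mean stands for it. A change was called where limma's p, adjusted by Benjamini-Hochberg over all probe sets of the array, was under 0.05, and differences are given as log2 with their standard error. Mean intensity per array ran from 93.3 to 613.7 as deposited, and the arrays of all but the 3-week PFOS study were quantile normalised within their study. Of 10 hepatocyte markers 9 were measured in each study, and 0 of them had a median at the floor over all arrays of a study. Other markers are said to be at the floor by the same median. Apoe, Apoc3, Apoc1 and Apoa2 lay at the 99.47th percentile of mean signal or higher in every study, where quantile normalisation sets a value by its rank among the brightest probe sets and leaves it little room to move. All fold changes are on the log2(value + 16) scale. Where groups are said to be apart or without overlap, this describes the rats and is no test. The share of all probe sets with such a separation was not counted. In whole liver, fewer hepatocytes and less RNA per hepatocyte cannot be told apart.

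Across the 19 comparisons of a treated group with its own control, all calls after Wy-14643 were lower, and 6 of 10 probe sets were called at 7 days. PFOA also lowered 3 genes, including Apoa1 and Apoa5. PCN raised Apoa1. After 5 days it lowered Apoa4 and all 3 Apoc3 probe sets in females, and the 2 dimmer Apoc3 probe sets in males. With median scaling none of these Apoc3 calls remained. No probe set of Apoc1 was called in any comparison as reported, but with median scaling it was called higher after D3T and lower after 3 days of Wy-14643.

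**Figure D1:**
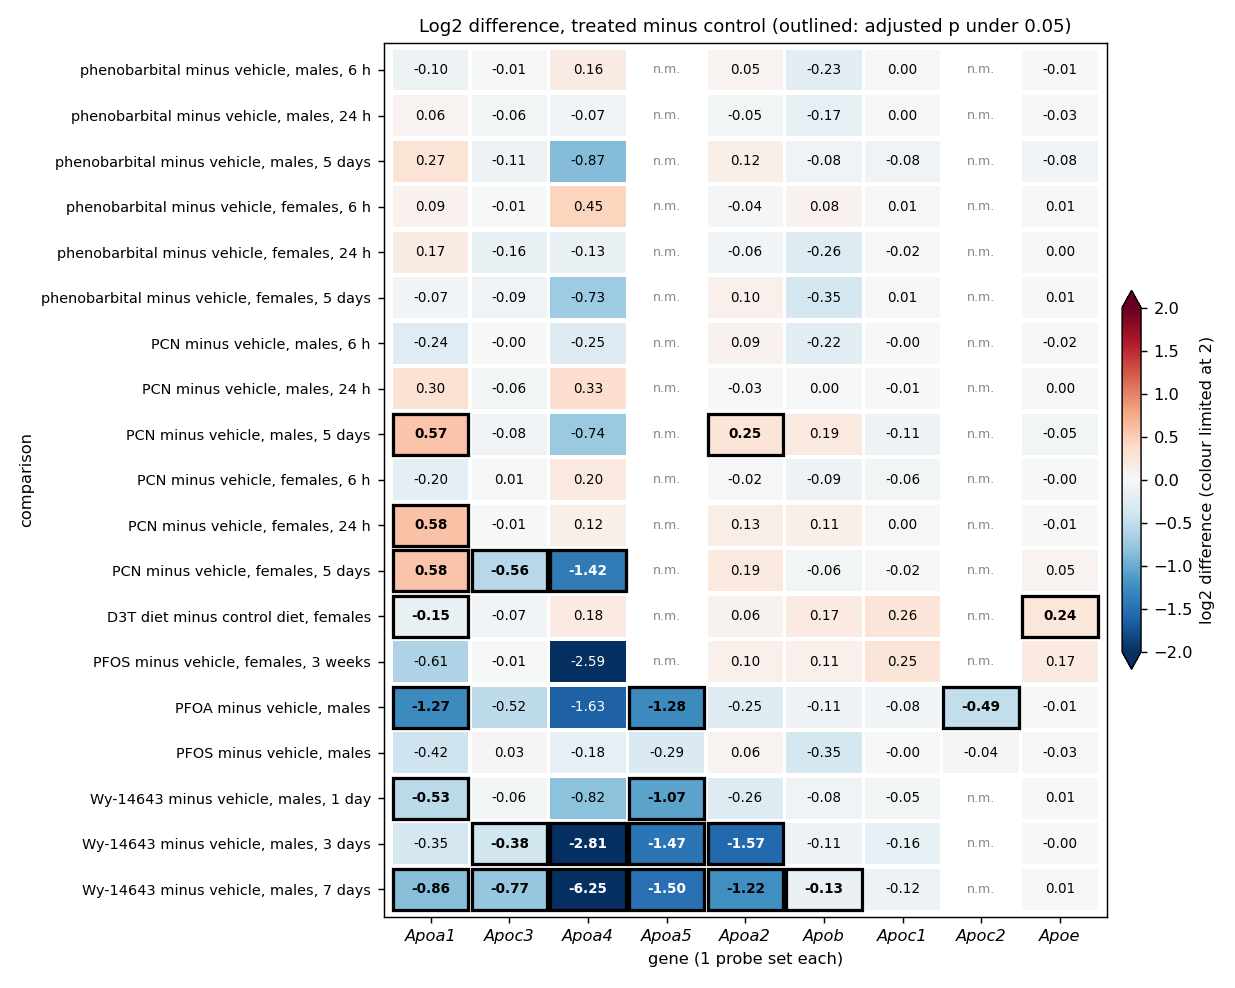
Log2 difference between treated and control rats for each of the 9 genes (columns, 1 probe set each) in each of the 19 comparisons (rows), with blue for lower and red for higher, a black outline for an adjusted p under 0.05, and n.m. where the array names no probe set for the gene. Apoa4 is at -6.25 after 7 days of Wy-14643, and outlined red cells in the Apoa1 column are found after PCN.

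Wy-14643 called 2 of 10 apolipoprotein probe sets after 1 day, 4 after 3 days and 6 after 7 days, all lower, against 11.5%, 10.8% and 13.1% of all probe sets changed in either direction. Of all probe sets, the lower ones made up 5.52%, 5.22% and 6.49% and the higher ones 5.94%, 5.56% and 6.57%. At 7 days the 6 were Apoa4, Apoa5, Apoa2, Apoa1, Apoc3 and Apob. The median difference over the 8 genes was -0.17, -0.36 and -0.81 at the 3 times, beside 0 over all probe sets. With only the 2 groups of the 3-day comparison in the fit 2 probe sets were called, and with median scaling 8. The deposited mean intensity at 3 days was 532.6 to 613.7 on Wy-14643 arrays and 317 to 449.1 on vehicle arrays. At 1 day it was 448.8 to 562.9 against 363.9 to 429.1, and at 7 days the groups overlapped. At 1 and 3 days the scale of the arrays and the treatment therefore cannot be told apart.

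Apoa4 showed the deepest fall. In vehicle rats it read 11.92, 12.37 and 12.26 at 1 day, 12.36, 12.20 and 12.20 at 3 days, and 12.52, 12.17 and 12.38 at 7 days. In Wy-14643 rats it read 11.37, 11.41 and 11.32 at 1 day, 10.21, 9.06 and 9.07 at 3 days, and 7.36, 6.61 and 4.37 at 7 days. No treated rat overlapped its controls at any time, and rat 14 at 7 days was close to the floor. With 3 rats a group such a separation is no test of an effect, at 1 day or later. The differences were -0.82 ± 0.56 (adjusted p = 0.42), -2.81 ± 0.56 (adjusted p = 0.0067) and -6.25 ± 0.56 (adjusted p = 1.9e-05), and the last corresponds to a signal 75.9-fold lower. That fold was 41.5 without rat 14 and 117 without rat 12, where the differences were -5.37 and -6.87. The size at 7 days moved with the pseudocount, from -5.37 with 64 to -6.99 with 1, and with 1 the adjusted p at 3 days was 0.054. The effect at 7 days differed from that at 1 day by -5.43 ± 0.79 (adjusted p = 0.0038), 1 of 2 apolipoprotein probe sets of 10 for which the effect at the 2 times differed, against 1.87% of all probe sets.

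Apoa5, the neighbour of Apoa4 that promotes triglyceride clearance, fell at all 3 times. Vehicle rats read 12.35, 12.30 and 12.43, then 12.24, 12.11 and 12.36, then 12.15, 12.47 and 12.20, and treated rats 11.46, 11.47 and 10.93, then 11.06, 10.62 and 10.63, then 11.13, 10.61 and 10.56. Every treated rat lay below every control. The differences were -1.07 ± 0.18 (adjusted p = 0.0022), -1.47 ± 0.18 (adjusted p = 0.00034) and -1.50 ± 0.18 (adjusted p = 0.00018). The 7-day effect differed from the 1-day effect by -0.43 (95% interval -0.98 to 0.12), which did not pass the test.

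The genes of high density lipoprotein were lower as well. Apoa1 in vehicle rats was between 13.13 and 13.42 over the 9 animals, and in treated rats 12.79, 12.76 and 12.95 at 1 day, 13.26, 12.84 and 12.76 at 3 days and 12.47, 12.46 and 12.15 at 7 days. It fell by 0.53 at 1 day (SE 0.12, adjusted p = 0.013) and by 0.86 at 7 days (SE 0.12, adjusted p = 0.00054). At 3 days, when rat 06 overlapped the controls, the difference of -0.35 did not pass (adjusted p = 0.092), but it was called with median scaling (-0.71, adjusted p = 0.019) and without rat 06 (-0.50, adjusted p = 0.0071). Apoa2 was 13.40 to 13.62 over the vehicle rats. It read 12.85, 13.41 and 13.44 in treated rats at 1 day, 11.58, 11.56 and 12.75 at 3 days, and 12.64, 12.33 and 11.86 at 7 days. The groups overlapped at 1 day and were apart at 3 and 7 days, with differences of -1.57 ± 0.28 (adjusted p = 0.0036) and -1.22 ± 0.28 (adjusted p = 0.011). With only the 2 groups in the fit the first had an adjusted p of 0.094.

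Apoc3, the inhibitor of lipoprotein lipase, was not called at 1 day and was lower later. Treated rats read 13.74, 13.68 and 13.75 at 1 day, 13.59, 13.32 and 13.31 at 3 days and 13.00, 13.03 and 13.02 at 7 days, against 13.71 to 13.83 over the vehicle rats. The differences at 3 and 7 days were -0.38 ± 0.06 (adjusted p = 0.0022) and -0.77 ± 0.06 (adjusted p = 9.1e-06), without overlap. The 7-day effect differed from the 1-day effect by -0.70 ± 0.09 (adjusted p = 0.0016, and 0.055 with median scaling). The call at 3 days was lost with only the 2 groups in the fit (adjusted p = 0.098).

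Apob, Apoc1 and Apoe differed little from control after Wy-14643. Apob, the particle backbone, read 13.24, 13.10 and 13.22 at 7 days against 13.33, 13.33 and 13.30, a difference of -0.13 ± 0.04 (adjusted p = 0.037) that turned to 0.0053 when its 2 probe sets were averaged, the other being dim. Its call was lost in 7 of 13 alternatives: that average, only the groups compared, the dimmest 33.3% left out, and leaving out treated rat 13 or vehicle rat 33, 34 or 35. Apoc1 differed by -0.05 to -0.16 and was not called. Apoe differed by at most 0.01 in either direction, with 95% intervals at 1, 3 and 7 days within -0.11 and 0.12. With median scaling the Apoe differences were -0.22, -0.60 and -0.35 at 1, 3 and 7 days, and that at 3 days was called (adjusted p = 0.023), as were those of Apob (-0.49) and Apoc1 (-0.64) at 3 days. The second Apoe probe set was at the floor in all 18 rats.

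**Figure D2:**
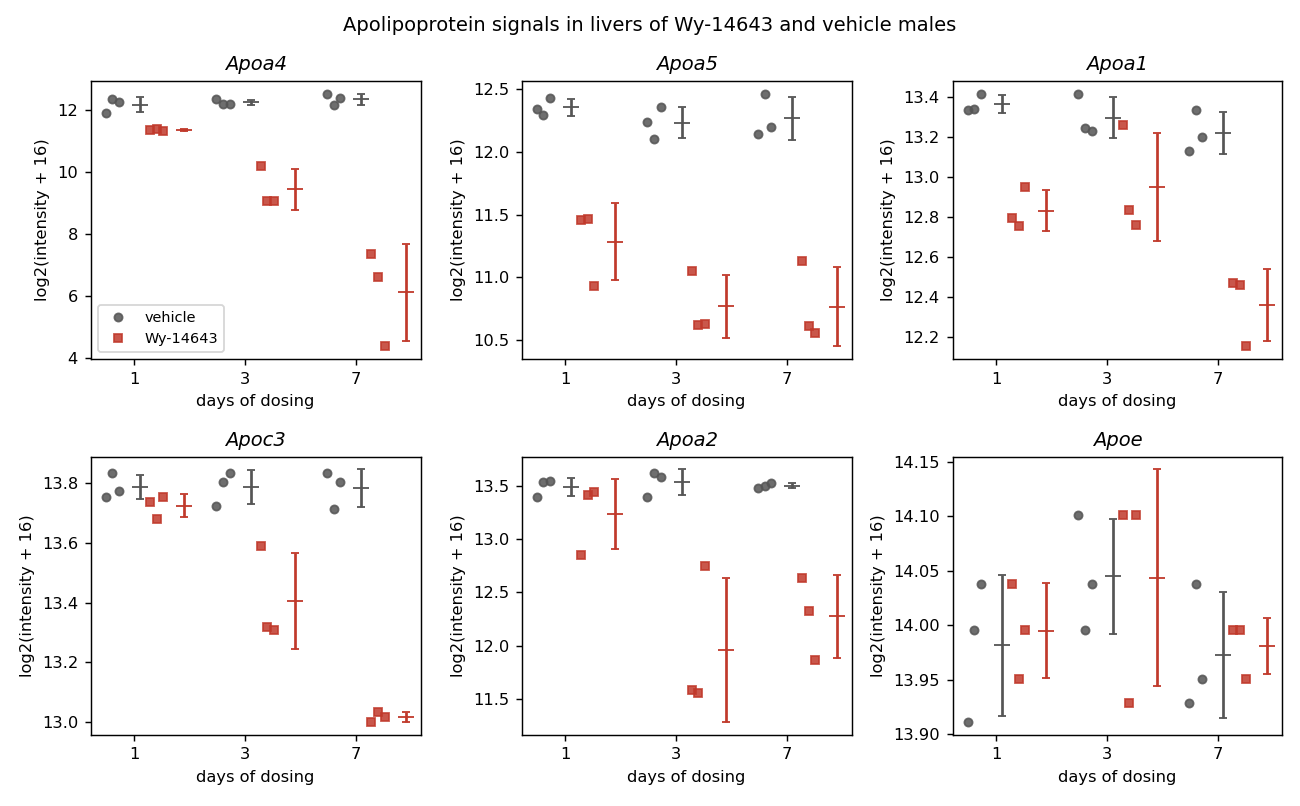
Log2(intensity + 16) of 6 apolipoprotein genes in each rat by days of dosing, with grey circles for vehicle, red squares for Wy-14643, and a dash with a bar beside each group for its mean ± SD (n = 3 rats); each panel has its own vertical scale. Apoa4 descends from 12.36 in the vehicle mean to 6.11 in the treated mean at 7 days, while Apoe spans 13.91 to 14.10 over all rats.

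Leaving out rat 06, whose label gives no dose, left 5 probe sets called at 3 days, with Apoa4 at -3.19, Apoa5 at -1.61, Apoa2 at -1.38, Apoa1 at -0.50 and Apoc3 at -0.47. Beside the falls at 7 days, the summed signal of 8 measured macrophage markers of 12 was 2645 to 3043 in treated and 4330 to 7192 in vehicle rats, with none of the 8 at the floor, and that of the 9 hepatocyte markers was 123393 to 128526 against 129121 to 132492. Among them, 3 macrophage markers and 1 hepatocyte marker were called lower. Blood cell markers, 4 measured of 8, summed to 5749 to 8382 against 11305 to 15278 (3 called lower), and stellate cell markers, 9 of 10, to 3217 to 3402 against 4045 to 4929 (2 called lower). Bile duct markers, 4 of 7 with Krt7 at the floor, were higher, at 319 to 529.8 against 254 to 287, and Epcam was called at 0.91. The log2 ratio of 3' to 5' probe signal of beta-actin, a measure of RNA integrity, was 0.63 to 0.81 against 1.15 to 1.65. It was also apart at 1 day (0.816 to 0.986 against 0.993 to 1.271) and 3 days (0.717 to 0.773 against 0.968 to 1.278). At 3 days the macrophage, hepatocyte and blood cell sums were likewise lower without overlap, and the stellate cell and bile duct sums overlapped. At 1 day the hepatocyte sum was lower and the bile duct sum higher, without overlap. The part of these markers and ratios in these results was not tested.

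Other genes of lipoprotein handling moved in both directions. Of 8 measured genes that remodel lipoproteins in plasma, 2 rose and 3 fell at 7 days. Lpl, the lipase that Apoc2 activates and Apoc3 restrains, rose by 2.91 ± 0.38 (adjusted p = 0.00031), and its inhibitor Angptl4 by 0.87 ± 0.25. Lcat, the enzyme served by Apoa1, fell by 0.81. Of 13 genes of uptake and export, 2 rose and 3 fell, led by the fatty acid transporter Cd36 at 4.78 ± 0.51 (adjusted p = 8e-05). Of 12 genes of assembly and secretion, 4 rose and 3 fell. Dgat1, which makes triglyceride, rose by 0.62 and the lipid droplet coat Plin2 by 0.86. Of 7 other apolipoproteins, Apoc4 fell by 1.46 and Apom, carried on high density lipoprotein, by 1.19, and the mitochondrial Apool rose by 0.68. Of 19 transcription factors, Hnf4a, Nr1h2, Cebpa and Nr1h3 rose, at 0.70, 0.63, 0.58 and 0.47.

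PFOA lowered 3 of 11 apolipoprotein probe sets, Apoa5, Apoc2 and Apoa1, and raised 0, against 6.05% of all probe sets changed, 3.23% higher and 2.83% lower. The median difference over the 9 genes was -0.49, beside 0 over all probe sets. The count rested on single rats: 0 probe sets were called without vehicle rat R95435 or without PFOA rat R95472, and 1 without vehicle rat R95436. It was 1 with median scaling and 1 with only the 2 groups in the fit. The 3 differences stayed below 0 in each of these fits.

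Apoa5 read 10.71, 10.94 and 10.58 after PFOA and 12.41, 11.88 and 11.78 after vehicle, a difference of -1.28 ± 0.19 (adjusted p = 0.017) or 2.43-fold lower. Without vehicle rat R95435 its adjusted p was 0.051 and without PFOA rat R95472 it was 0.058. Apoa1 read 11.64, 11.77 and 10.96 against 12.84, 12.69 and 12.63, a difference of -1.27 ± 0.26 (adjusted p = 0.04). Both genes separated all treated from all vehicle rats. The Apoa1 call was lost without any 1 of the 6 rats, and with median scaling (adjusted p = 0.11). Apoc2, the activator of lipoprotein lipase, read 12.47, 12.38 and 12.21 against 12.77, 12.97 and 12.78, a difference of -0.49 ± 0.08 (adjusted p = 0.024). With median scaling it was -0.65 with an adjusted p of 0.17. The Apoc2 call was lost in 7 of 13 alternatives. Besides median scaling these were only the 2 groups in the fit (adjusted p = 0.07) and the dimmest 33.3% left out (adjusted p = 0.11). The others left out vehicle rat R95435 or R95436 or PFOA rat R95471 or R95472.

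Apoa4 and Apoc3 lay apart from vehicle without passing the test. Apoa4 read 9.49, 11.21 and 9.82 after PFOA and 12.46, 11.38 and 11.57 after vehicle, so that its difference of -1.63 ± 0.49 carried an adjusted p of 0.12. Apoc3 read 13.25, 12.97 and 12.70 against 13.48, 13.51 and 13.50, a difference of -0.52 ± 0.13 (adjusted p = 0.066). Rat R95472 was the lowest of its group for Apoa1, Apoa5, Apoc2 and Apoc3. Apoa2, Apob, Apoc1 and Apoe had differences of -0.25, -0.11, -0.08 and -0.01, and the 95% interval for Apoe was -0.10 to 0.09. With median scaling they were -0.57, -0.34, -0.41 and -0.43, none called (adjusted p of 0.21, 0.19, 0.35 and 0.39), and that of Apoe lay outside this interval.

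PFOS at 10 mg/kg a day, the lower of the 2 doses, called 0 of 11 apolipoprotein probe sets by limma, against 0.461% of all probe sets. An unadjusted p under 0.05 was found for 0 of the 11 and for 3724 of all 31042. Apoa1 read 12.68, 12.30 and 11.94, a difference of -0.42 ± 0.26 from the same vehicle rats (95% interval -1.04 to 0.20), and Apoa5 read 11.54, 11.75 and 11.92, a difference of -0.29 (interval -0.75 to 0.17). Apoa4 was 11.77, 11.65 and 11.46, a difference of -0.18 with the wide interval -1.35 to 0.98. Under median scaling the sign turned for Apoa4, Apoa5, Apoc1, Apoc2 and Apoe, and none of them was called either way. The beta-actin 3' to 5' log2 ratio was 1.684 to 2.261 after PFOS against 0.788 to 1.597 after vehicle, without overlap. The same ratio for GAPDH overlapped, at 1.069 to 1.397 against 0.457 to 1.244. Hepatocyte markers summed to 94134.5 to 96557 after PFOS against 97576 to 100434 after vehicle. Bile duct markers summed to 462 to 589 against 306 to 435, and blood cell markers to 7021 to 8329 against 5477 to 5840. Stellate cell and macrophage sums overlapped, and the macrophage marker Cd14 was called lower (-1.33, adjusted p = 0.034). The part of RNA integrity and of these markers in the PFOS result was not tested. PFOA and PFOS share their vehicle rats and were given at different doses, so no test was made between them.

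**Figure D3:**
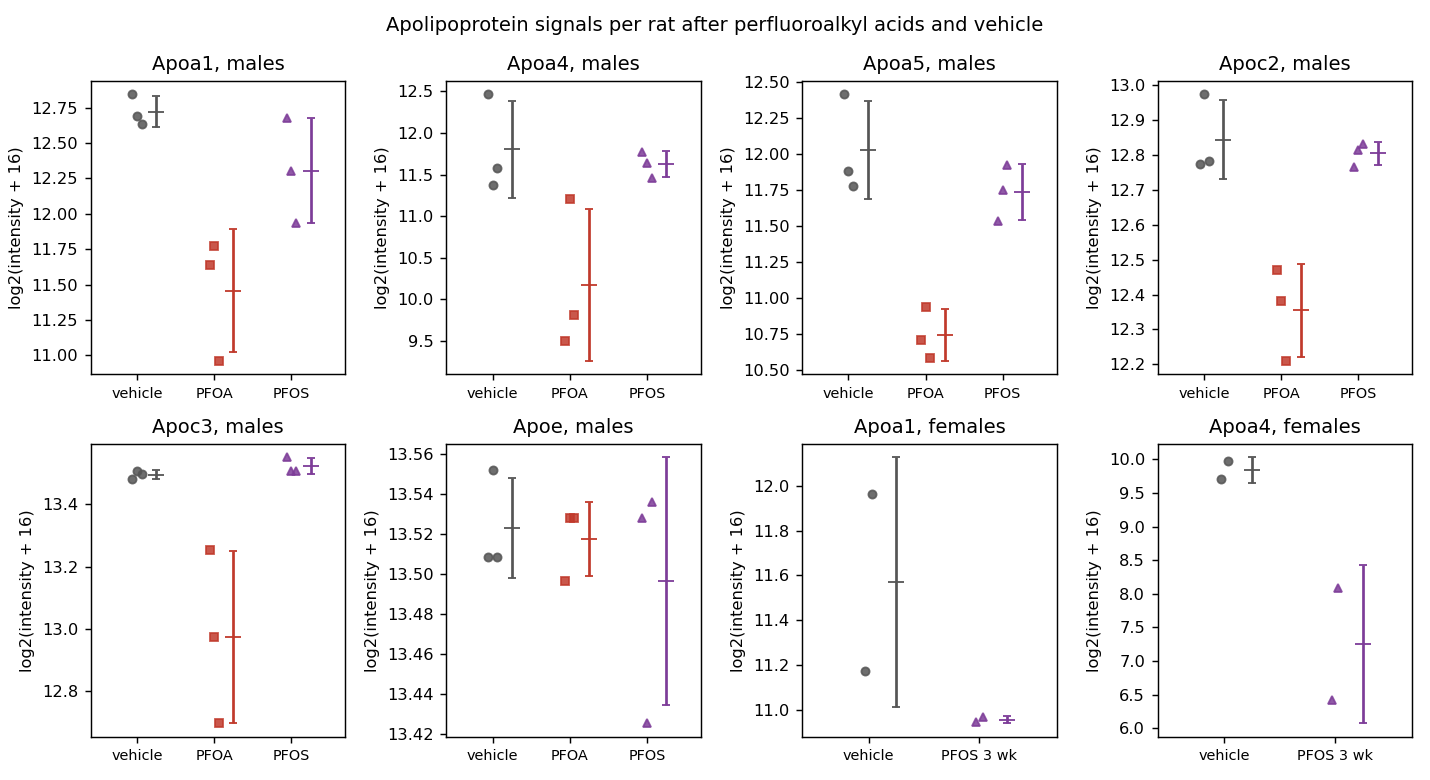
Log2(intensity + 16) in each rat after vehicle (grey circles), PFOA (red squares) or PFOS (purple triangles) for 6 genes in males (n = 3 rats a group) and for Apoa1 and Apoa4 in females after 3 weeks of PFOS (n = 2), with a dash and bar for the mean ± SD and an own vertical scale in each panel. Apoa5 lies between 10.58 and 10.94 after PFOA and at 11.78 or above after vehicle, and Apoa4 in females is at 6.42 and 8.09 against 9.71 and 9.98.

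Around the members, PFOA raised 2 and lowered 4 of 11 genes of plasma remodelling. Angptl4 rose by 2.21 ± 0.24 (adjusted p = 0.0062) and Lpl by 1.95 ± 0.37 (adjusted p = 0.033), whereas the antioxidant enzyme of high density lipoprotein Pon3 fell by 1.53 and the hepatic lipase Lipc by 1.02. Of 15 assembly genes 3 rose and 5 fell. Aadac fell by 1.59 and Apobec1, which edits the Apob transcript, by 1.10, and Plin2 rose by 1.15. Of 14 uptake genes Scarb2 rose by 1.65 and Lrp1, a receptor for Apoe-bearing remnants, fell by 1.18. Of 8 other apolipoproteins Apom fell by 1.26. Of 21 transcription factors Creb3l3 rose by 1.44 and Srebf2 fell by 1.20. The summed signal of 10 macrophage markers of 12 was 5311 to 8308 after PFOA, 6738 to 9932 after PFOS and 9609 to 12753 after vehicle, with 0 of them at the floor, and that of the 9 hepatocyte markers was 82677 to 93984 after PFOA and 97576 to 100434 after vehicle. Bile duct markers, 5 measured of 7, summed to 775 to 881 after PFOA against 306 to 435 after vehicle, and Epcam was called higher by 1.28. Stellate cell markers, 9 of 10, summed to 3010.4 to 3519 against 4393 to 5885, and Lrat (-1.73) and Col3a1 (-0.69) were called lower, as was the macrophage marker Cd14 (-1.65). The part of these markers was not tested.

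After 3 weeks of PFOS at 5 mg/kg in females, with 2 rats a group, 0 of 15 apolipoprotein probe sets and 0% of all 8740 were called by limma, while 421 of all probe sets and 0 of the 15 had an unadjusted p under 0.05. Apoa4 nonetheless read 6.42 and 8.09 after PFOS and 9.71 and 9.98 after vehicle, a difference of -2.59 ± 0.76 with a 95% interval from -5.33 to 0.14. Apoa1 read 10.94 and 10.97 against 11.18 and 11.96, and its second probe set 9.81 and 10.27 against 10.62 and 11.29. Both treated rats lay below both controls for these 3 probe sets. Such a separation is no test of an effect with 2 rats a group, and its share over all probe sets was not counted. The remaining genes differed by between -0.01 and 0.25. With 2 rats a group the intervals are wide.

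After PCN, Apoa1 was not called at 6 h and was raised later. In males at 5 days Apoa1 was 12.66 to 13.10 (median 12.82) against 12.06 to 12.51 (median 12.33) in vehicle, a difference of 0.57 ± 0.14 (adjusted p = 0.0051). In females it was 12.68 to 13.03 (median 12.84) against 12.12 to 12.42 (median 12.20) at 24 h, a difference of 0.58 ± 0.14 (adjusted p = 0.005). At 5 days in females it was 12.84 to 13.01 (median 12.93) against 12.04 to 12.68 (median 12.34), a difference of 0.58 ± 0.14 (adjusted p = 0.0023) or 1.49-fold. In these 3 comparisons every PCN rat lay above every control. At 24 h in males the difference of 0.30 was not called, and at 6 h the values were -0.24 in males and -0.20 in females. The second Apoa1 probe set was called in females at 5 days (0.74 ± 0.21). Averaging both probe sets ended the call in males at 5 days (adjusted p = 0.069) and in females at 24 h (adjusted p = 0.1), and median scaling that in males (adjusted p = 0.063).

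Counts over all members placed PCN in females at 5 days first in this study, with 6 of 15 probe sets called, 2 higher and 4 lower, against 8.43% of all probe sets (4.45% higher and 3.98% lower). The 6 belong to 3 genes, Apoa1, Apoc3 and Apoa4. With median scaling 2 were called, the main probe sets of Apoa1 (higher) and Apoa4 (lower), and none of Apoc3. Apoc3 was 12.30 to 12.84 (median 12.62) against 13.11 to 13.19 (median 13.16), without overlap, and fell by 0.56 (SE 0.06, adjusted p = 9.8e-12). Its 2 other probe sets fell by 0.49 and 0.31. Apoc3 is among the brightest signals of this array, and with median scaling the difference was -0.45 with an adjusted p of 0.098. Apoa4 was 6.84 to 9.73 (median 8.68) against 8.94 to 10.48 (median 10.09), overlapping, a difference of -1.42 ± 0.28 (adjusted p = 0.00016) that was lost with only the 2 groups in the fit (adjusted p = 0.2). Rat 5511 was the lowest PCN female for both genes. The 9 hepatocyte markers summed to 59555 to 65201 in these PCN females and 62553 to 65563 in their controls, and Fgb was called lower (-0.38). Bile duct markers, 4 measured of 7, summed to 119 to 133 against 75.3 to 110.4, and Epcam was called at 0.78. Macrophage markers, with Csf1r at the floor, overlapped at 1344 to 1997 against 1562 to 2265. The part of these markers was not tested.

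In males after 5 days of PCN, 4 of 15 probe sets were called, against 4.77% of all, and 2 without PCN rat 5011, PCN rat 5015, vehicle rat 1013 or vehicle rat 1015 in turn. The count was 0 with median scaling and 1 with only the 2 groups in the fit. Besides Apoa1, Apoa2 was 12.93 to 13.11 against 12.61 to 12.93, a difference of 0.25 ± 0.08 (adjusted p = 0.035, and 0.58 with median scaling). The main Apoc3 probe set differed by -0.08 and was not called, while its 2 others were called lower, at -0.23 (adjusted p = 0.035) and -0.34 (adjusted p = 0.015). Apoa4 was 8.73 to 10.46 (median 9.88) against 10.21 or more (median 10.36), a difference of -0.74 ± 0.28 (adjusted p = 0.13). The effect of PCN on Apoc3 in females minus that in males was -0.48 ± 0.08 (adjusted p = 0.00023), against 0.606% of all probe sets for which the sexes differed. That difference was not called with median scaling (-0.27, adjusted p = 0.86) or with only the 4 groups in the fit (adjusted p = 0.071). Nor was it called with the left-out array 1003 kept (adjusted p = 0.67) or on the mean of the 3 probe sets (adjusted p = 0.14). For Apoa4 the difference between sexes was -0.68 with an interval of -1.48 to 0.13. At 24 h PCN called 1 of 15 probe sets in females, against 3.7% of all, and 0 in males, against 0.572%, by limma. In those males 2 of the 15 and 683 of all 8740 had an unadjusted p under 0.05. At 6 h limma called 0 in either sex, against 1.88% in males and 2.24% in females. An unadjusted p under 0.05 was found there for 0 of the 15 and 975 of all in males. In females it was 1 of the 15 and 994 of all.

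**Figure D4:**
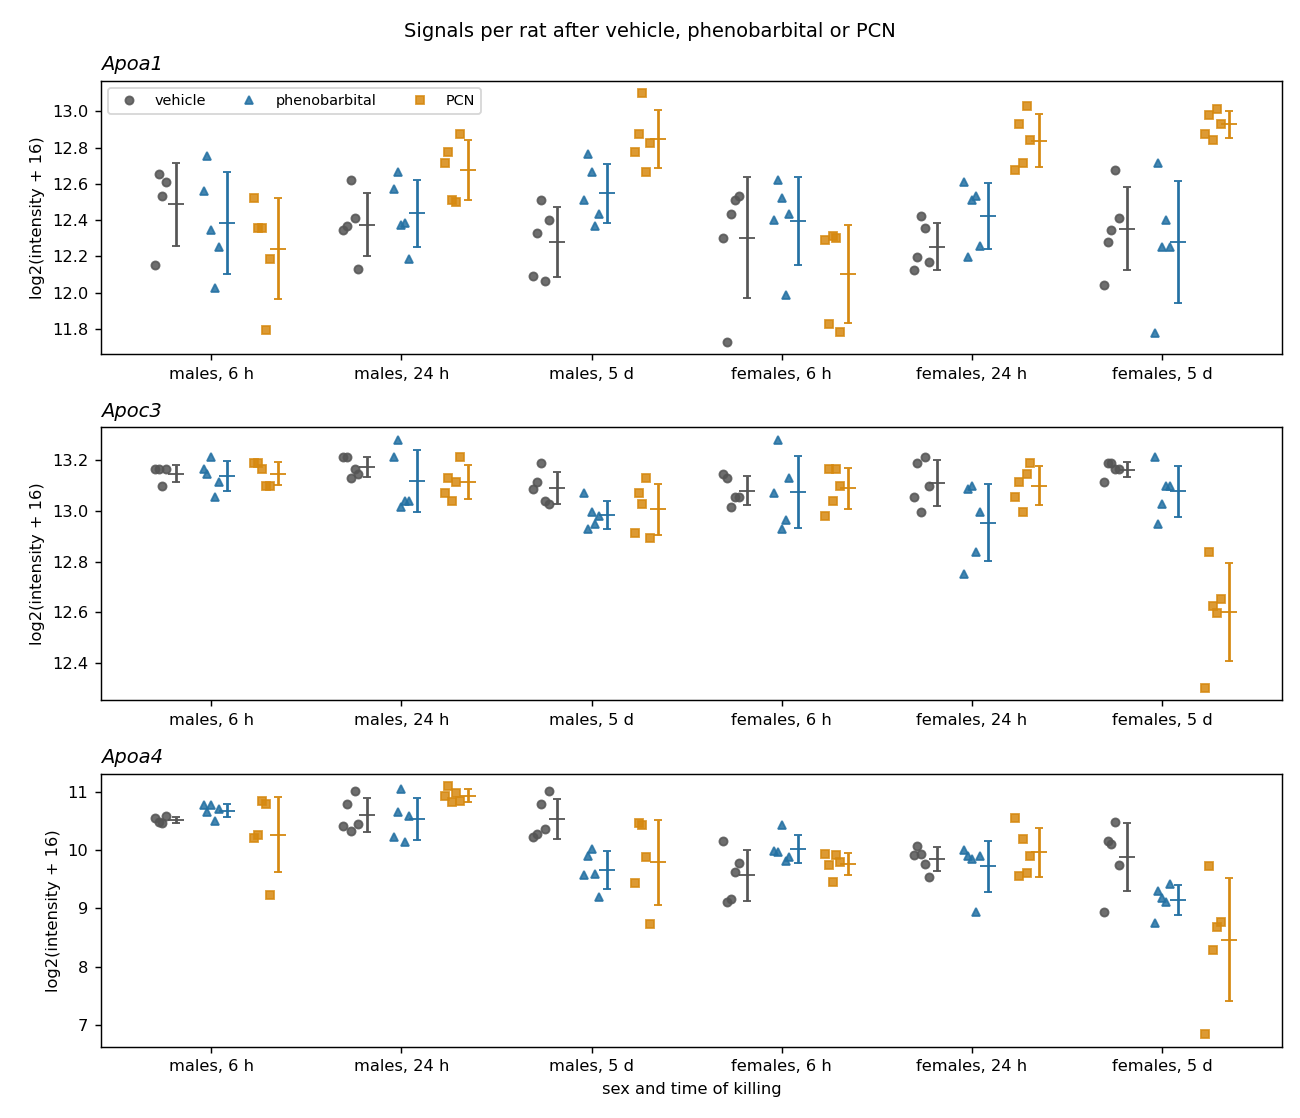
Log2(intensity + 16) of Apoa1, Apoc3 and Apoa4 in each rat after vehicle (grey circles), phenobarbital (blue triangles) or PCN (orange squares), by sex and time, with a dash and bar for the mean ± SD (n = 5 rats a group, 4 in vehicle males at 6 h) and an own vertical scale in each panel. PCN rats are above vehicle for Apoa1 at 5 days, the 5-day PCN females stand at 12.84 or lower for Apoc3, and males read higher than females for Apoa4 in the vehicle groups at 6 and 24 h.

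Phenobarbital called 1 apolipoprotein probe set in its 6 comparisons, a dimmer one of Apoc3 in males at 5 days (-0.35 ± 0.09, adjusted p = 0.012), against 4.91% of all probe sets. Leaving out phenobarbital rat 4011 or 4015 gave 0, and leaving out 4012, 4013 or vehicle rat 1011 gave 2. In the other 5 comparisons limma called 0 of 15, against 0.732% and 2.31% of all at 6 and 24 h in males and 2.61%, 4.04% and 2.47% at 6 h, 24 h and 5 days in females. Unadjusted p-values under 0.05 numbered 0, 2, 1, 4 and 3 of 15 in the same order. Over all 8740 probe sets they numbered 776, 1021, 943, 1157 and 871. At 24 h in females 1 was called without phenobarbital rat 4507, 4508 or 4510. Apoa4 at 5 days was 9.20 to 10.02 against 10.21 or more in males, without overlap, a difference of -0.87 ± 0.28 (adjusted p = 0.058), and 8.75 to 9.42 against 8.94 to 10.48 in females, a difference of -0.73 ± 0.28 (adjusted p = 0.23). Apoa1 differed by 0.27 in males and -0.07 in females at 5 days.

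The 2 agents, at the same dose and time, were compared directly after 5 days. In females 4 of 15 probe sets differed, against 6.91% of all: phenobarbital rats were lower than PCN rats for Apoa1 (-0.65 ± 0.14, adjusted p = 0.00077) and higher for Apoc3 (0.47 ± 0.06, adjusted p = 8.2e-09), without overlap in either gene. The Apoa1 call was lost with only the 2 groups in the fit (adjusted p = 0.059) and the Apoc3 call with median scaling (adjusted p = 0.16). In males limma called 0 of 15, against 3.08% of all, and the Apoa1 difference was -0.30 (95% interval -0.58 to -0.02). There 2 of the 15 and 1103 of all 8740 had an unadjusted p under 0.05. The effect of phenobarbital itself differed between the sexes for 0 of the 15 by limma, against 0.103% of all. An unadjusted p under 0.05 was found for 0 of the 15 and for 633 of all.

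Between vehicle females and males, Apoa4 was lower in females by 0.95 at 6 h (-0.95 ± 0.30, adjusted p = 0.04), with 9.11 to 10.15 against 10.46 to 10.58. At 24 h it was 9.53 to 10.08 against 10.32 to 11.02, and at 5 days 8.94 to 10.48 against 10.21 or more, differences of -0.75 and -0.65 that were not called. Apoa2 was higher in females at 6 h (0.30 ± 0.08, adjusted p = 0.0093). These 2 probe sets of 15 at 6 h stand against 6.49% of all, and the 0 of 15 that limma called at 24 h and 5 days against 5.03% and 5.3%. At 24 h and 5 days 2 and 3 of the 15, and 1309 and 1362 of all 8740, had an unadjusted p under 0.05. At 6 h the count of calls was 0 with median scaling, 0 with only the 2 groups in the fit and 0 without vehicle male rat 1005. It was 1 without any 1 of vehicle males 1001, 1002 and 1004 or vehicle females 1502, 1503 and 1504.

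Over the 18 groups of this study the Apoa4 means ran from 10.93 ± 0.11 (SD, n = 5) in PCN males at 24 h to 8.46 ± 1.05 in PCN females at 5 days, and the Apoa1 means from 12.93 ± 0.07 in PCN females at 5 days to 12.10 ± 0.27 in PCN females at 6 h. Most neighbours in either order lay within 1 SD of each other. Among 2658 other genes, the group means most like those of Apoa1 were of Nptn (Pearson r = 0.90), of Apoa2 Maoa (0.87), of Apoa4 Got2 (0.87) and of Apoc3 Cux1 (0.90). For Apob, Apoc1 and Apoe, whose means spanned 0.59, 0.15 and 0.11, they were Cngb1 (0.79), Ptger3 (0.78) and Tom1l2 (0.74). These r describe 18 means that share rats' sex, time and array normalisation. Each was picked as the largest of 2658, a choice that by itself favours a high r, so its size is no test of likeness.

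Among neighbours of the pathway in the same study, Lcat fell at 5 days after phenobarbital by 0.51 in males and 0.47 in females and after PCN in females by 0.35. PCN in females lowered 3 of 4 measured genes of plasma remodelling, Lpl (-0.60), Lipc (-0.50) and Lcat, and 2 of 7 of uptake, Cd36 (-2.33 ± 0.38, adjusted p = 2.6e-06) and the high density lipoprotein receptor Scarb1 (-0.60). P4hb, a subunit of the complex that loads lipid onto Apob, rose by 0.41 and Ppara by 0.45, while Apom fell by 0.34. In males PCN lowered Srebf1 (-1.49), Scarb1 (-0.79), Sdc1 (-0.50), Apoc4 (-0.45) and Lipc (-0.43), and raised P4hb (0.35) and Clu (0.28). Phenobarbital in males, set against the same vehicle rats, lowered Srebf1 (-1.35), Sdc1 (-0.90), Scarb1 (-0.75) and Apoc4 (-0.40) and raised Lpl (0.77) and Clu (0.25).

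The D3T diet called 4 of 15 apolipoprotein probe sets, 2 higher and 2 lower, against 12.6% of all (5.22% higher and 7.33% lower). Apoa1 read 12.20, 12.28, 12.13 and 12.25 against 12.37, 12.39, 12.39 and 12.31 on the plain diet, a difference of -0.15 ± 0.04 (adjusted p = 0.041). Apoe read 13.05, 12.99, 13.05 and 13.05 against 12.94, 12.77, 12.82 and 12.65, a difference of 0.24 ± 0.06 (adjusted p = 0.049). Groups did not overlap for either gene. The Apoa1 call was lost in 10 of 15 alternatives and the Apoe call in 11 of 15. Both were lost with the dimmest 33.3% left out, on the mean of the gene's probe sets and with a block for rat number. Each was also lost in 6 of the 8 fits that left out 1 rat. Apoc3 gave 2 calls of opposite sign, -0.22 and 0.44 on its dimmer probe sets, and its main one (-0.07) was not called. These small differences depend on the scaling. The deposited mean intensity was 93.3 to 117.4 on the D3T arrays and 276.4 to 416.9 on the control arrays, so the scale of the arrays and the diet cannot be told apart. With median scaling Apoa1 turned to 0.67 (adjusted p = 0.051), Apoc3 to 1.08 and Apoe to 1.5 (adjusted p = 0.0064), and Apoa2 (1.08, adjusted p = 0.02) and Apoc1 (1.18, adjusted p = 0.015), not called in the reported fit (0.06 and 0.26), were called. The beta-actin 3' to 5' log2 ratio was also apart, 0.22 to 0.55 against 0.76 to 1.32, and its part was not tested. Hepatocyte markers, 9 measured of 10, summed to 50473 to 53694 on D3T against 55905 to 57902 on the plain diet, with 5 called lower. Also lower were stellate cell markers, 8 of 10 with Des at the floor, at 712 to 1029 against 1081 to 1457 (1 called), and blood cell markers, 3 of 8, at 2198 to 2764 against 3222 to 4529.8 (2 called). Macrophage markers, 6 of 12 with Csf1r at the floor, summed to 1273 to 1615 against 1579.96 to 1949, overlapping, with 2 called lower. The part of these markers was not tested either. Apoa4 differed by 0.18 with an interval of -0.14 to 0.50. Without any 1 of D3T rats 1, 3 and 4 or control rats 2 and 3, the count was 2. Around the members, 3 of 4 genes of plasma remodelling fell, Pon1 by 0.86, Lipc by 0.72 and Lcat by 0.22, while Plin2 rose by 1.01 and Srebf1, a driver of lipid synthesis, by 1.84.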

How the data were processed

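Affymetrix signal intensity values were used as deposited, 1 per probe set and array, and how the authors computed them is not given in the sources used here. Negative values were set to 0, control probe sets dropped, and log2(intensity + 16) taken. Arrays were quantile normalised within a study where array medians ranged over 0.5. Differences came from limma 3.58.1 (R 4.3.3), with all groups of a study in 1 model, and p-values were adjusted by Benjamini-Hochberg over all probe sets. The fit was tested on simulated data. Vehicle male array 1003 at 6 h was left out, since its correlation with its group mean was 0.633 against 0.974 to 0.981 for the others. Scaling, pseudocount, filter, samples fitted, probe set choice and single rats were varied. The number of arrays limits the precision. Each p-value sets a difference against a spread between rats that limma pools over all groups of the study and moderates over all probe sets. All 9 members are described, with other genes named where called within the lists. Members and lists were chosen with earlier results of these data known. Figures used Python 3.11.15 and matplotlib 3.10.9. The deviations of same-numbered D3T and control rats correlated at 0.27, -0.08, -0.10 and -0.20, which cannot exclude a pairing. The numbers were not taken as pairs, and a fit with them is given below.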

Additional observations from a re-analysis of the deposited data

Results flagged for a closer look

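Of 140 gene and group combinations with 4 or 5 rats, 10 held a rat set apart from the rest of its group, and chance alone sets apart about 1 in 20. That rate holds for values without ties. It does not apply to Apoc3 in rat 1004, Apoc3 in D3T rat 3 and Apoe in D3T rat 2, where all other rats shared a tied value. In the phenobarbital and PCN study, Apoa1 was 11.73 in vehicle female rat 1502 at 6 h, against 12.30 to 12.53 in the others. Apoa2 was 12.39 in PCN male rat 5002 at 6 h, against 12.73 to 12.86. Apoa4 was 8.94 in phenobarbital female rat 4509 at 24 h, against 9.84 to 10.01, and 10.42 in phenobarbital female rat 4503 at 6 h, against 9.82 to 9.97. Apob was 11.33 in PCN male rat 5015 at 5 days, against 11.21 to 11.24. Apoc3 was 13.10 in vehicle male rat 1004 at 6 h, against 13.16. Apoe was 13.10 in phenobarbital female rat 4504 at 6 h, against 13.19 to 13.21. In the D3T study, Apoa4 was 10.31 in control rat 2, against 10.46 to 10.48, Apoc3 was 12.77 in D3T rat 3, against 12.84, and Apoe was 12.99 in D3T rat 2, against 13.05.

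Effects on 2 genes differed between groups by a limma interaction term with a Benjamini-Hochberg adjusted p under 0.05. The PCN effect on Apoc3 at 5 days differed by -0.48 (females minus males). This call was lost with median scaling, with only the groups compared, with array 1003 kept and on the mean of the probe sets. The Wy-14643 effect at 7 days differed from that at 1 day by -5.43 for Apoa4 and by -0.70 for Apoc3, the latter not called with median scaling.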

How the results depend on the processing

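Over all alternatives, 386 counts of apolipoprotein probe sets stayed within 1.5 times the reported count and 55 did not, and of the named gene results 388 kept direction and call, 79 lost the call and 2 reversed. The reversals were Apoa1 after D3T with median scaling (0.67) and Apob after 7 days of Wy-14643 on the mean of its probe sets (0.0053). The cause was not tested. With median scaling the counts were 0 for phenobarbital and for PCN in males at 5 days, 2 for PCN in females, 0 for the sexes at 6 h, 1 for phenobarbital against PCN in females, 0 for the PCN effect by sex, 1 for PFOA, 8 for Wy-14643 at 3 days and 1 for its 7-day against 1-day effect. With only the groups compared they were 0 for phenobarbital and 1 for PCN in males at 5 days, 0, 1 and 1 for the sexes at 6 h, 24 h and 5 days, 2 for phenobarbital against PCN in females, 0 for the PCN effect by sex, 1 for PFOA and 2 for Wy-14643 at 3 days. With array 1003 kept they were 1 for phenobarbital and 1 for PCN in males at 6 h, 2 for PCN in males at 5 days, 4 for the sexes at 6 h, 2 for phenobarbital against PCN in females and 0 for the PCN effect by sex. Phenobarbital in males at 5 days gave 2 with a pseudocount of 64 and 2 with the dimmest 33.3% of probe sets left out, a filter that gave 1 for D3T. Leaving out 1 rat at a time gave 2 to 4 for D3T, 2 to 4 for PCN in males at 5 days, 0 to 3 for PFOA, 0 to 1 for phenobarbital in females at 24 h, 0 to 2 in males at 5 days, and 0 to 2 for the sexes at 6 h.

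With a replicate block over the D3T numbers, 1 probe set was called. The correlations of same-numbered rats were 0.27, -0.08, -0.10 and -0.20. So few correlations cannot exclude a pairing, and the labels show only a shared number.

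Median scaling also moved the share of higher calls among all probe sets called: for phenobarbital from 84.4% to 96.3% in males at 6 h, 52.2% to 62.7% at 5 days, and in females 57.2% to 73.2% at 24 h and 58.8% to 69.1% at 5 days; for PCN in males 69.5% to 82.1%, 82% to 94% and 61.4% to 74.8% at 6 h, 24 h and 5 days. It moved from 61.5% to 77.8% for PFOS in males, 51.8% to 67.2% for Wy-14643 at 1 day, and 56.2% to 41.3% for its 7-day against 1-day effect. Signals near the floor give no size for a further fall.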
